A study of Mus musculus with 11 samples.

Results

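The genes described here have symbols that begin with Clec and a digit or with Klr and a letter from a to k. Most such names belong to C-type lectin-like receptors, but the choice was by symbol. Some members, such as the secreted Clec11a and the pseudogene Klrb1-ps1, are not receptors. All genes with such a symbol and a probe set matched to a single gene symbol were taken, each through its probe set of highest mean. This gave 56 genes, 33 Clec and 23 Klr, of 19938 genes in all. They were measured on 11 Affymetrix arrays of sorted cells from C57BL/6J mice, with no treatment named in the labels. The 3 marrow populations were haematopoietic stem cells (HSC, 2 arrays), common lymphoid progenitors (CLP, 2 arrays) and, between them, the multipotent progenitors called lymphoid-primed (LMPP, 2 arrays). The 3 populations with a thymus label were the early thymic precursors (ETP), on 2 arrays, the double negative 3 cells (DN3), on 2 arrays, and the double negative 2 cells (DN2), on a single array; their sample descriptions name bone marrow instead. The sources used here give neither the mice's ages, nor the sort gates, nor the origin of each replicate, so p-values measure only the spread between these samples, which may be technical. Because each array holds RNA of a whole sorted sample, fewer cells that carry a transcript and less RNA per cell cannot be told apart.

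Proteins with a C-type lectin-like domain bind sugars, lipids or proteins at the cell surface. The Clec genes are best known from dendritic cells and phagocytes, where receptors such as Clec4e, Clec4d and Clec7a sense microbes and dead cells and signal through the kinase Syk. Most Klr genes form the natural killer gene complex, whose products tell natural killer cells whether a neighbouring cell carries MHC class I molecules or Clr proteins, the products of Clec2 genes. The receptors act in pairs of opposite sign: some carry an inhibitory motif of their own, and others borrow an activating adaptor such as Fcer1g (the FcR gamma chain), Tyrobp (DAP12) or Hcst (DAP10). On chromosome 6 lie 48 of the 56 genes (RefSeq), many of them side by side. The longest stretch without any other protein-coding gene between them held 12 members, from Klre1, Klrd1 and Klrk1 to Klra6, and another held 9, among them Clec4n, Clec4d and Clec4e.

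Values are log2 intensities, in which a difference of 1 is a ratio of 2, and array medians lay between 6.01 and 6.12. No detection call was available. The 1027 olfactory receptor genes, few of which are expected in blood cells, served as a guide to the level of unexpressed genes: their 95th percentile lay between 5.72 and 6.01 on the 11 arrays. Where no array of a population lay above that level, a fold against it is given as a bound ("at least"): the mean of the brighter population over the mean of the dimmer arrays set to their olfactory level, beside limma's adjusted p for the values as measured. The marker lists were not all highest in the population they are named for. The mean of the HSC markers was 7.33 and 7.34 on the HSC arrays and at most 6.73 elsewhere. The CLP markers averaged 10.39 and 10.42 on the CLP arrays, and the DN3 markers 10.05 and 10.10 on the DN3 arrays. The LMPP markers averaged 11.24 to 11.36 in LMPP, 11.49 to 11.60 in CLP and at most 10.27 elsewhere. The ETP markers averaged 8.32 to 8.45 in ETP, 8.45 in DN2 and at most 7.94 elsewhere, and the DN2 markers 8.73 in DN2, 8.80 to 8.84 in DN3 and 6.78 to 6.83 in ETP.

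Of the 56 genes, 9 differed among the 6 populations (16.1%; limma's moderated F test, Benjamini-Hochberg adjusted p under 0.05), beside 12.2% of all genes. They were Klrd1, Clec4e, Clec2i, Clec12a, Klrb1f, Clec2d, Clec4d, Clec2g and Clec4g, in order of the range between their highest and lowest population mean. A few genes carried nearly all of the variation. The range was above 1 on the log2 scale for 7 members (12.5%), against 8.2% of all genes, while the median range was 0.29 for the members and 0.34 for all genes. The 47 members that did not pass the test had ranges from 0.07 to 0.81. In 39 members, 20 of them Klr genes, no array lay above its olfactory level, whereas 7 lay above it on every array. By family the test called 3 of 8 Clec2 genes, 2 of 9 genes of the Clec4 cluster with Clec4e and Clec4d, 1 of 6 genes of the cluster around Clec7a and Clec12a, and 1 of 10 other Clec genes. It called 1 of 5 genes of the CD94 and NKG2 group, 1 of 6 Klrb genes, 0 of 6 Ly49 (Klra) genes and 0 of 6 remaining Klr genes. At an unadjusted p under 0.05 limma's F test passed 14 of the 56 (25.0%, beside 23.3% of all genes), none of them a Ly49 gene or one of the remaining Klr genes.

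**Figure D1:**
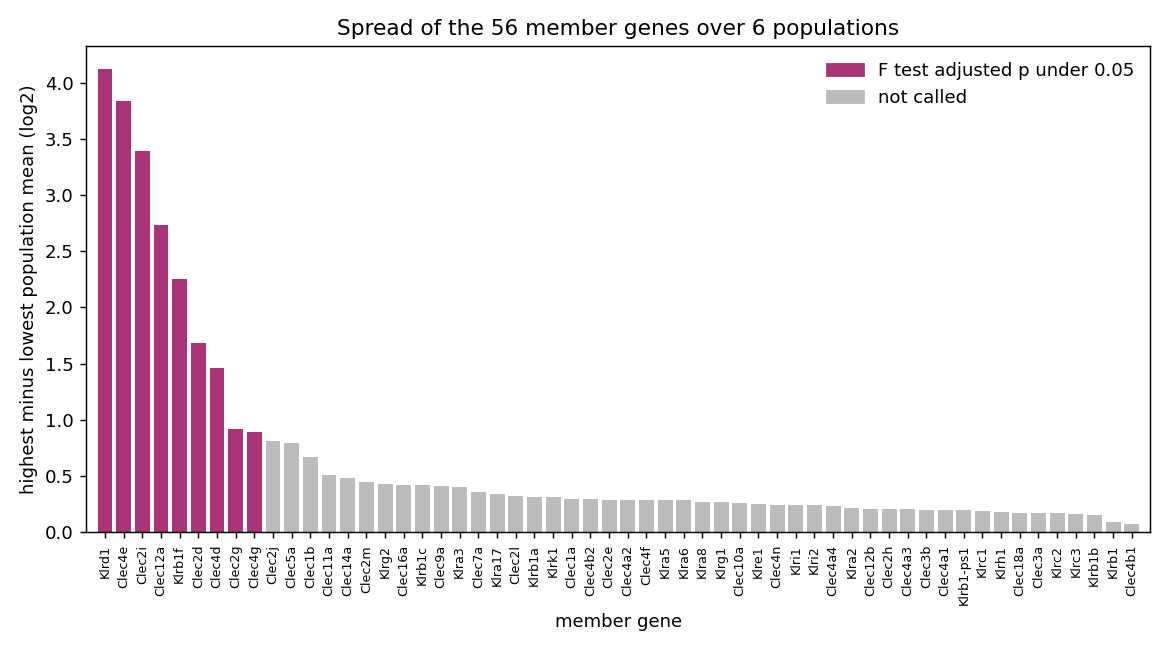
Bars give, for each of the 56 genes on the x axis, the highest minus the lowest population mean (log2), coloured where limma's F test had an adjusted p under 0.05 and grey otherwise. The 9 coloured bars run from 4.12 (Klrd1) to 0.89 (Clec4g), and the first grey bar is Clec2j at 0.81.

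The plot of ranges shows how unevenly the differences were spread. Klrd1 was the only gene of its family of 5 with a range above 0.31, and the next 3 genes in the order, Clec4e, Clec2i and Clec12a, each belong to a different family.

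The populations were compared along the path from HSC to DN3, and ETP was set against both marrow progenitors. These comparisons share arrays, so their values for a gene are not independent. Between HSC and LMPP 5 of 56 members passed (8.93%, against 2.94% of all genes): Klrd1, Clec2i and Clec12a were higher in LMPP, and Clec4e and Clec4d lower. Between LMPP and CLP 3 passed (5.36%, against 1.14%), and all 3, Klrd1, Klrb1f and Clec2d, were higher in CLP. ETP differed from LMPP in 6 members (10.7%, against 2.31%): Clec4e, Clec4d, Clec2i, Clec2d, Klrd1 and Clec4g, all higher in ETP. ETP differed from CLP in 5 (8.93%, against 2.52%), with Clec4e, Clec4d and Clec4g higher and Clec12a and Klrb1f lower in ETP. From ETP to DN2 2 members passed (3.57%, against 0.998%), and both, Klrd1 and Clec4g, were lower in DN2. From DN2 to DN3 2 passed (3.57%, against 1.8%), Clec4e and Clec4d, both lower in DN3. DN3 differed from ETP in 5 members (8.93%, against 6.57%), and Klrd1, Clec4e, Clec4d, Clec12a and Clec4g were all lower in DN3. The median difference over the 56 members stayed between -0.08 and 0.05 in the 7 comparisons, and over all genes between -0.03 and 0.03. In what follows, "without either" array of a population means that each of its arrays was left out in turn. All comparisons share 1 estimate of the spread. Leaving out an array of a population outside a comparison keeps its difference unchanged and alters only that estimate and the adjustment over genes. A population left with 1 array no longer adds to the estimate.

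Leaving out single arrays moved these counts and those over all genes. Over all genes the called count ran from 310 to 622 between HSC and LMPP (586 with all arrays), 98 to 257 between LMPP and CLP (228), 228 to 521 between LMPP and ETP (460) and 248 to 543 between CLP and ETP (502). It ran from 92 to 200 between ETP and DN2 (199), 181 to 385 between DN2 and DN3 (358) and 695 to 1426 between ETP and DN3 (1310). For the members, the counts that moved by over 1.5 times were these. Between HSC and LMPP the count was 1 without HSC replicate 1 or LMPP replicate 1 and 3 without HSC replicate 2 or either DN3 array. Between LMPP and CLP it was 1 without LMPP replicate 2. Between LMPP and ETP it was 1 without ETP replicate 2 and 3 without either LMPP array. Between CLP and ETP it was 2 without CLP replicate 1, ETP replicate 1 or either DN3 array and 3 without CLP replicate 2 or ETP replicate 2. From ETP to DN2 it was 1 without either ETP array, and from DN2 to DN3 1 without DN3 replicate 1.

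**Figure D2:**
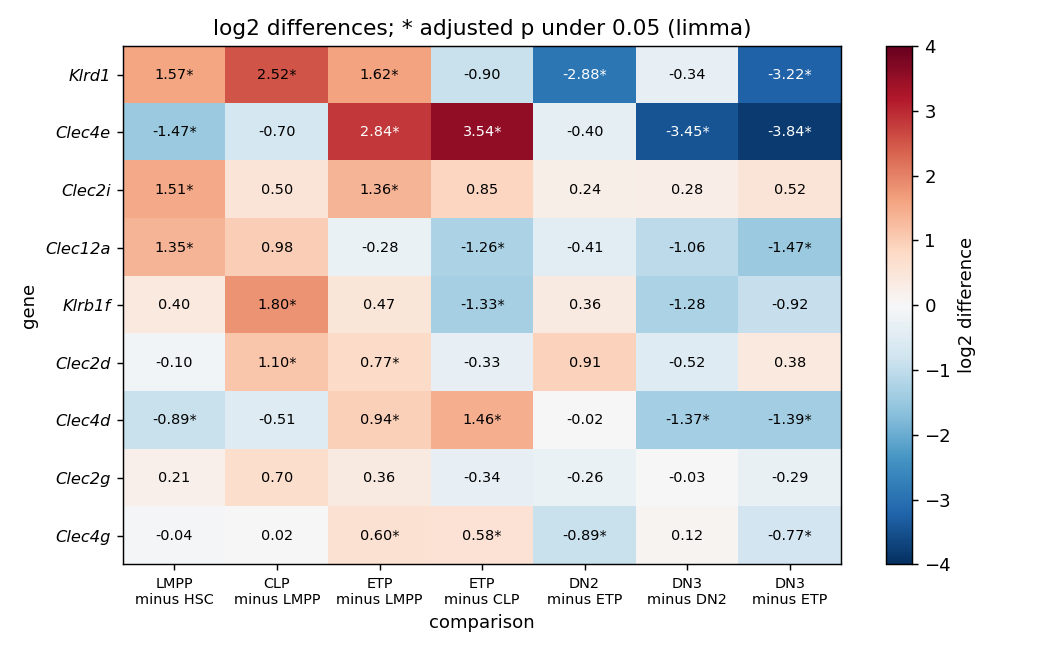
Log2 differences of the 9 genes that passed the F test (rows) in the 7 comparisons (columns), with red for higher and blue for lower in the population named first, and a star where limma's adjusted p was under 0.05. Clec4e and Clec4d are blue from HSC to LMPP, red from LMPP or CLP to ETP and blue from DN2 or ETP to DN3.

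The plot of differences by comparison separates 3 shapes, which are described in turn: genes low in LMPP and CLP and high in HSC, ETP and DN2 (Clec4e and Clec4d), genes highest in CLP (Klrd1, Klrb1f and Clec12a), and genes higher in the thymic populations than in HSC (Clec2i and Clec2d).

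Clec4e (Mincle) and Clec4d (MCL) are neighbouring genes for receptors that join each other and Fcer1g and bind mycobacterial glycolipids. Their promoters are shown because the pair followed a common pattern across the 6 populations. They are RefSeq sequences of build GRCm38.p6, from 250 bases before to 50 after the gene start: Clec4e at chr6:123289822-123290121 on the minus strand and Clec4d at chr6:123261857-123262156 on the plus strand. Capitals mark matches to TTNCNNAA, a short form of the site of C/EBP factors of myeloid cells, on either strand. A match is common: 40.7% of 27025 promoters of that length held at least 1, Clec4e held 2 and Clec4d 3. It is not particular to the pair: of 8 promoters found for the genes that passed the F test, 6 held a match. Clec12a held 3, and Clec2i, Klrb1f and Clec2d held 2 each, although these genes followed other patterns. The motif was 1 of several searched for.
Clec4e: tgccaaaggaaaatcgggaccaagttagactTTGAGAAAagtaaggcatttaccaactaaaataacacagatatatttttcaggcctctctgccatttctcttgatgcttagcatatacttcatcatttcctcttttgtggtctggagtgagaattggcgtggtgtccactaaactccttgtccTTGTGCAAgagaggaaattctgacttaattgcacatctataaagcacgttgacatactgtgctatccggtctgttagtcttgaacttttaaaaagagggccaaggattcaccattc
Clec4d: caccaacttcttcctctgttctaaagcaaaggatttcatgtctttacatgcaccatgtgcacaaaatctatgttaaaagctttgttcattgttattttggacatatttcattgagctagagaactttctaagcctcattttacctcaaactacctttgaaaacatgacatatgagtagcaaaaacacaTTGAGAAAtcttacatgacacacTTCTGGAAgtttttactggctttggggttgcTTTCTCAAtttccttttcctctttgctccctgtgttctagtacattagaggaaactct

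Clec4e was measured at 7.54 and 7.83 in HSC, 5.74 and 6.69 in LMPP, 5.69 and 5.35 in CLP, 8.68 and 9.45 in ETP, 8.66 in DN2, and 4.94 and 5.50 in DN3. The ETP and DN2 arrays were the highest, the HSC arrays came next, and no HSC, ETP or DN2 array overlapped with those of LMPP, CLP or DN3. The population means spanned 3.84 on the log2 scale, between ETP (9.06 ± 0.55, SD, n = 2) and DN3 (5.22 ± 0.40, SD, n = 2), and no CLP or DN3 array lay above its olfactory level. Clec4e fell from HSC to LMPP by 1.47 ± 0.33 (SE; adjusted p = 0.0409 in limma). ETP exceeded LMPP, of whose arrays 1 lay above the olfactory level, by 7.17-fold (adjusted p = 0.00112, limma) and CLP by at least 9.09-fold (adjusted p = 0.000191, limma). From DN2 to DN3 it fell by 3.45 ± 0.40 (SE; adjusted p = 0.00123, limma), at least 7.19-fold. The difference between ETP and DN2 (9.06 and 8.66) did not pass the test, while DN3 was lower than ETP by 3.84 ± 0.33 (SE; adjusted p = 3.39e-05, limma), at least 9.51-fold.

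Clec4d was dimmer, with 6.07 and 6.02 in HSC, 4.88 and 5.42 in LMPP, 4.62 and 4.66 in CLP, 5.94 and 6.25 in ETP, 6.08 in DN2, and 4.65 and 4.77 in DN3. The HSC, ETP and DN2 arrays lay together near 6, at the upper edge of the olfactory level, and all LMPP, CLP and DN3 arrays lay below it. The HSC mean, 6.04, lay beside those of ETP (6.10) and DN2 (6.08), whereas for Clec4e it lay below both. ETP exceeded CLP by at least 1.16-fold (adjusted p = 0.00104, limma) and LMPP by at least 1.10-fold (adjusted p = 0.0181, limma). DN3 was at least 1.21-fold lower than ETP (adjusted p = 0.000522, limma). Clec4d fell by 0.89 ± 0.17 (SE) from HSC to LMPP (adjusted p = 0.0204, limma) and by 1.37 ± 0.21 (SE) from DN2 to DN3 (adjusted p = 0.00717, limma). Over the 6 population means the levels of Clec4e and Clec4d had a Pearson correlation of 0.96, a description of 6 points from the same 11 arrays.

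The other 7 genes of the cluster did not follow the pair. Clec4n (Dectin-2), which also uses Fcer1g, lay between 3.46 and 3.87 on all arrays, and Clec4a1, Clec4a2, Clec4a3, Clec4a4, Clec4b1 and Clec4b2, for DCIR and DCAR proteins, between 3.14 and 4.56. None of the 7 had an array above the olfactory level. The Clec4a genes are close copies of each other, so probe sets may read more than 1 of them.

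Myeloid marker lists moved partly with the pair. The mean of the 7 neutrophil markers was 6.68 to 7.08 on HSC and 6.87 to 6.99 on ETP arrays, 6.13 on the DN2 array, and 5.59 to 6.08 on the LMPP, CLP and DN3 arrays. Elane, S100a8 and S100a9 of that list were higher in ETP than in LMPP. Unlike the pair, Elane and S100a8 fell from ETP to DN2, with means of 5.04 and 6.33 in DN2 and 5.12 and 6.30 in DN3. S100a9 stayed high in DN3, with means of 7.88 in DN2 and 7.62 in DN3. Of the granule genes on the list, Mpo read 11.75 and 11.36 in HSC, 10.46 and 10.64 in LMPP, 9.32 and 10.13 in CLP, 10.76 and 10.67 in ETP, 8.89 in DN2, and 5.78 and 5.68 in DN3. Unlike the pair, Mpo did not differ between LMPP and ETP (log2 difference 0.16, adjusted p = 0.839, limma). The late gene Camp, between 5.67 and 6.39, lay above the olfactory level on 9 arrays. Ly6g and Ngp, also late genes, were not above it in any population. The 6 mast cell and basophil markers averaged 6.61 to 6.62 in HSC, 6.21 to 6.35 in ETP, 6.20 in DN2 and 5.19 to 5.59 elsewhere, with Ms4a2 and Fcer1a not above the olfactory level in any population. Of that list Cpa3, a mast cell protease, read 9.94 and 10.28 in HSC, 9.76 and 10.22 in ETP, 11.06 in DN2, 8.83 and 8.95 in DN3, and at most 5.58 in LMPP and CLP. Mcpt8, a basophil protease, read 7.40 and 7.79 in HSC, 6.65 and 7.05 in LMPP, 5.10 and 6.21 in CLP, 6.80 and 7.32 in ETP, 6.72 in DN2, and 4.94 and 4.95 in DN3. The 7 conventional dendritic cell markers averaged 6.56 to 6.68 in ETP and 5.50 to 5.86 elsewhere. Of these, only the MHC class II genes H2-Aa, H2-Ab1 and Cd74 passed between ETP and LMPP or CLP, all higher in ETP. Zbtb46 and Xcr1 were not above the olfactory level in any population, and the population means of Batf3 had a range of 0.18. Of 4 measured monocyte and macrophage markers, Adgre1 and Cd14 were not above the olfactory level in any population, and the mean of the 4 was 5.97 to 6.19 in HSC, 6.04 to 6.11 in LMPP, 5.76 to 5.83 in CLP, 5.94 to 6.06 in ETP, 5.58 in DN2 and 5.34 to 5.46 in DN3. The part of such cells in the Clec4e and Clec4d levels was not tested.

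The log2 difference of Clec4e between HSC and LMPP ran from -1.94 to -0.99 under the alternatives. Its call was lost without either HSC array or without LMPP replicate 1. The call was lost as well without either CLP or DN3 array, which left the difference itself unchanged. It was also lost with arrays centred on their medians (0.0593), array weights (0.107) and a fit of the 2 groups alone (0.137). For Clec4d, the call between HSC and LMPP was lost without either HSC array or LMPP replicate 1 (adjusted p 0.0613 to 0.119, limma), that between LMPP and ETP without LMPP replicate 1 (0.102) or ETP replicate 2 (0.167), and that between DN2 and DN3 without DN3 replicate 1 (0.0606).

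**Figure D3:**
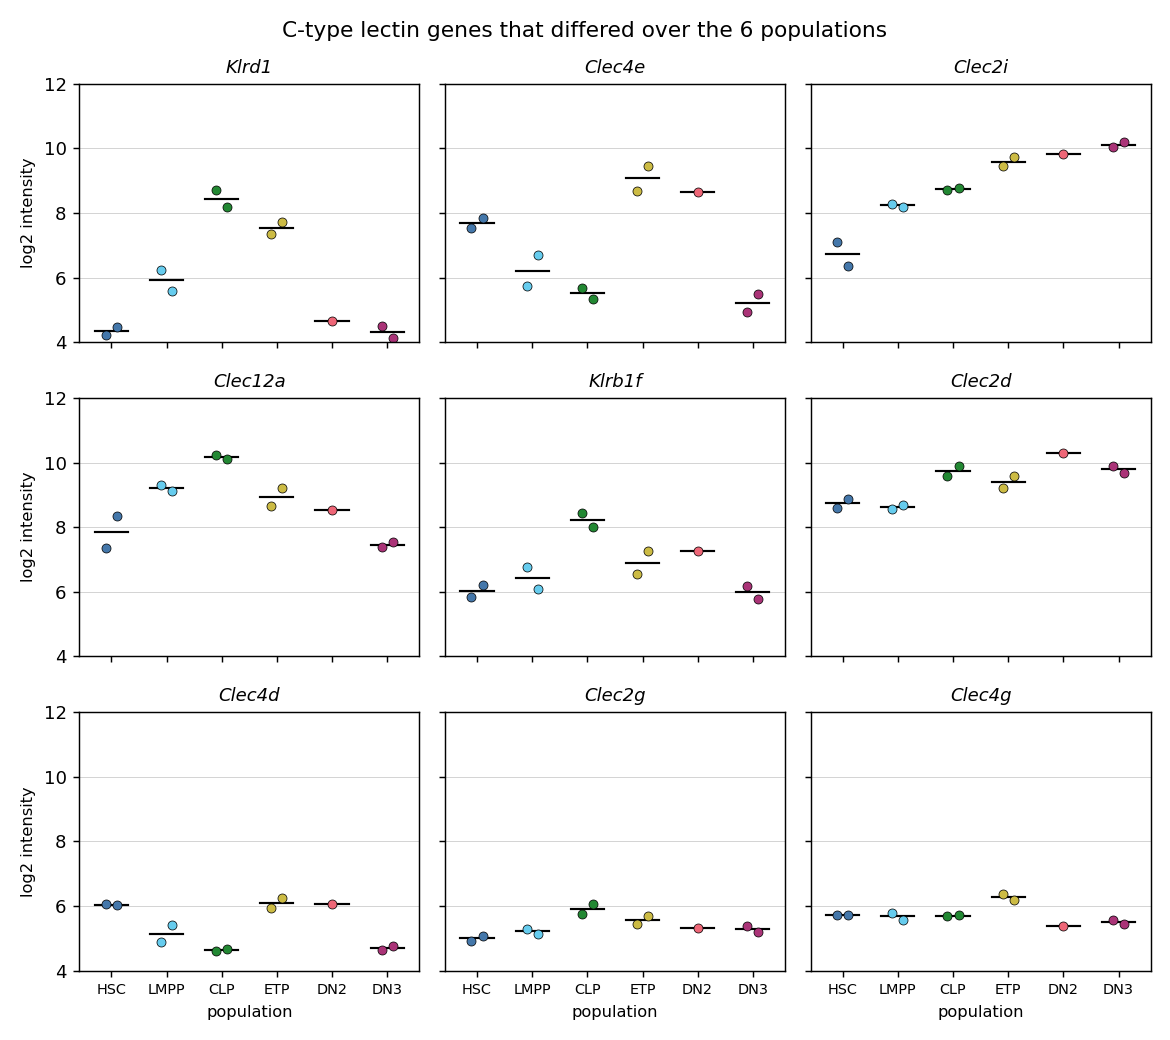
Log2 intensity (y axis) of the 9 genes that passed the F test in the 6 populations (x axis), 1 panel per gene, with a point for each of the 11 arrays and a black line at each population mean. Klrd1 lies at 4.22 and 4.46 in HSC, at 8.70 and 8.17 in CLP and at 4.66 in DN2, while Clec2i lies highest in DN3 (10.04 and 10.18).

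The plot of the 9 genes on each array shows that Klrd1 spanned the widest range of all members. Klrd1 encodes CD94, which pairs with the NKG2 proteins of the Klrc genes into receptors for the class I molecule Qa-1 on natural killer cells. It was measured at 4.22 and 4.46 in HSC, 6.24 and 5.59 in LMPP, 8.70 and 8.17 in CLP, 7.34 and 7.73 in ETP, 4.66 in DN2, and 4.49 and 4.14 in DN3. The CLP arrays were the highest and the ETP arrays next, LMPP lay between, and HSC, DN2 and DN3 lay together at the bottom, with no overlap between these 4 levels. The means of CLP (8.43 ± 0.38, SD, n = 2) and DN3 (4.31 ± 0.25, SD, n = 2) differed by 4.12 on the log2 scale. No HSC, DN2 or DN3 array and 1 of the 2 LMPP arrays lay above its olfactory level.

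Klrd1 rose at each marrow step. It was higher in LMPP than in HSC by 1.57 ± 0.25 on the log2 scale (SE, at least 1.05-fold; adjusted p = 0.00619, limma) and 5.74-fold higher in CLP than in LMPP (2.52 ± 0.25, SE; adjusted p = 0.000689, limma). ETP exceeded LMPP by 3.08-fold (adjusted p = 0.00604, limma), and its difference from CLP, -0.90, did not pass (adjusted p = 0.112, limma). Within the thymus Klrd1 fell by 2.88 ± 0.30 (SE) from ETP to DN2, at least 3.26-fold (adjusted p = 0.00121, limma), and was at least 3.29-fold lower in DN3 than in ETP (adjusted p = 1.43e-05, limma). The first step lost its limma call without HSC replicate 1 (0.055) or LMPP replicate 1 (0.0512), and the difference between LMPP and ETP without LMPP replicate 2 (0.0501) or ETP replicate 2 (0.0704).

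CD94 has no signal of its own, and its partner genes stayed low on these arrays. Klrc1 (the inhibitory NKG2A) lay between 3.34 and 3.62, Klrc2 (the activating NKG2C) between 3.28 and 3.73, and Klrc3 between 2.86 and 3.21. Klrk1, which encodes the homodimer NKG2D, lay between 3.71 and 4.16. The ranges of their population means were 0.19, 0.17, 0.16 and 0.31, and none had an array above the olfactory level. Klre1, the next gene to Klrd1 in the complex, lay between 3.30 and 3.86.

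The mean of the natural killer markers did not follow Klrd1. The mean of the 9 markers was 5.82 to 6.15 on the CLP arrays and 5.87 to 5.89 in LMPP, below the 6.36 to 6.60 of ETP, 6.67 of DN2, 6.43 to 6.55 of DN3 and 6.22 to 6.33 of HSC. The DN3 mean of the list leans on Gzma, which read 11.16 and 11.21 in DN3 and 5.23 and 4.82 in CLP. The defining genes Ncr1, Eomes and Il2rb were not above the olfactory level in any population. Tbx21 lay above it on 9 arrays and Prf1 on all 11. Prf1 had its highest mean in CLP (6.46) and did not pass the F test (adjusted p = 0.713, limma). The 6 plasmacytoid dendritic cell markers averaged 7.58 to 7.97 on the CLP arrays and 6.65 to 7.08 on all others. Siglech of that list, at 7.75 and 8.36 in CLP, was at most 5.85 elsewhere, and Irf8, at 7.93 and 9.12 in CLP, at most 7.05. The other markers were less particular to CLP. Tcf4 had like means in LMPP (9.49) and CLP (9.56), and Bst2 and Pacsin1 did not pass the F test (adjusted p = 0.658 and 0.118, limma). Spib had its lowest mean in CLP (5.47) and its highest in DN3 (6.36). The part of such cells in the CLP levels of Klrd1, Klrb1f and Clec12a was not tested.

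Klrb1f was the only Klrb gene that differed among the populations. It encodes NKR-P1F, an activating receptor whose ligand is Clr-g, the product of Clec2i. It was measured at 5.84 and 6.22 in HSC, 6.77 and 6.10 in LMPP, 8.45 and 8.01 in CLP, 6.54 and 7.26 in ETP, 7.26 in DN2, and 6.17 and 5.79 in DN3. Both CLP arrays lay above all others, HSC and DN3 had the lowest means, and the arrays of LMPP and ETP overlapped. It was 3.48-fold higher in CLP than in LMPP (log2 difference 1.80 ± 0.28, SE; adjusted p = 0.0126, limma). ETP was 2.52-fold lower than CLP (adjusted p = 0.0361, limma). The difference from DN2 to DN3, -1.28, did not pass (adjusted p = 0.139, limma). The CLP step lost its call without LMPP replicate 2 (0.122) or CLP replicate 1 (0.112). The difference between CLP and ETP lost it without either CLP or DN3 array or ETP replicate 1 (0.0583 to 0.244).

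The other Klrb genes were dim and flat. Klrb1c, which encodes the NK1.1 antigen, lay between 3.32 and 3.92, Klrb1b, the receptor for Clr-b, between 3.95 and 4.21, Klrb1a between 3.44 and 4.09, Klrb1 between 4.37 and 4.59 and the pseudogene Klrb1-ps1 between 4.16 and 4.71. These genes are similar in sequence and their probe sets may share signal.

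Of the ligand genes of this system, Clec2i and Clec2d were bright. Clec2i was measured at 7.09 and 6.36 in HSC, 8.28 and 8.19 in LMPP, 8.71 and 8.77 in CLP, 9.46 and 9.72 in ETP, 9.83 in DN2, and 10.04 and 10.18 in DN3. The arrays of the 6 populations stood in that order with no overlap between neighbours. Clec2i was 2.86-fold higher in LMPP than in HSC (log2 difference 1.51 ± 0.20, SE; adjusted p = 0.00256, limma) and ETP exceeded LMPP by 2.56-fold (adjusted p = 0.0056, limma). Between CLP and ETP the difference of 0.85 missed the threshold (adjusted p = 0.059, limma). It passed without either HSC array, which leaves that difference unchanged and takes the gap between the HSC arrays (7.09 and 6.36) out of the estimate of the spread. The call between LMPP and ETP was lost without ETP replicate 2 (0.0651). The whole span, from 6.72 ± 0.52 (SD, n = 2) in HSC to 10.11 ± 0.10 (SD, n = 2) in DN3, was a ratio of 10.5.

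Clec2d encodes Clr-b, a widely expressed ligand through which natural killer cells are restrained. It was measured at 8.60 and 8.87 in HSC, 8.57 and 8.70 in LMPP, 9.58 and 9.88 in CLP, 9.22 and 9.58 in ETP, 10.31 in DN2, and 9.88 and 9.69 in DN3. The HSC and LMPP arrays overlapped and lay below all others, and the DN2 array was the highest. Clec2d was 2.14-fold higher in CLP than in LMPP (log2 difference 1.10 ± 0.16, SE; adjusted p = 0.00903, limma) and ETP exceeded LMPP by 1.70-fold (adjusted p = 0.039, limma). The increase of 0.91 from ETP to DN2 did not pass (adjusted p = 0.0818, limma). The first call was lost without either LMPP array or CLP replicate 2 (0.0551 to 0.0786), and the next without either LMPP or DN3 array or ETP replicate 2 (0.069 to 0.28), with quantiles normalized once more (0.0612) or in a fit of the 2 groups alone (0.119). Over the 6 population means the correlation of Clec2i with Clec2d was 0.78.

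Clec2g, a close relative in the same complex, passed the F test (adjusted p = 0.0172, limma) and none of the 7 comparisons. It was measured at 4.92 and 5.09 in HSC, 5.29 and 5.15 in LMPP, 5.77 and 6.07 in CLP, 5.46 and 5.70 in ETP, 5.32 in DN2, and 5.39 and 5.20 in DN3. Both CLP arrays were above all others, and only CLP replicate 2 lay above its olfactory level. Without that array the F test was lost (adjusted p = 0.0737, limma).

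The promoters of Clec2d and Clec2g are shown because they held the longest run of letters shared by any 2 of the 8 promoters found among the 9 genes, 22 bases. Both are on the plus strand of build GRCm38.p6 (RefSeq), Clec2d at chr6:129180365-129180664 and Clec2g at chr6:128934131-128934430, and the capitals mark the shared run.
Clec2d: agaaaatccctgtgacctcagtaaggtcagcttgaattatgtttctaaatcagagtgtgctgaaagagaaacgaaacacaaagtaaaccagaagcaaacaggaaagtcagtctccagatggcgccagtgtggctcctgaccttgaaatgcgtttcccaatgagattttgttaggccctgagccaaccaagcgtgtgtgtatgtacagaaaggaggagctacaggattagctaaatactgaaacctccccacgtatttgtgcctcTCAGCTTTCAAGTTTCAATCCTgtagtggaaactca
Clec2g: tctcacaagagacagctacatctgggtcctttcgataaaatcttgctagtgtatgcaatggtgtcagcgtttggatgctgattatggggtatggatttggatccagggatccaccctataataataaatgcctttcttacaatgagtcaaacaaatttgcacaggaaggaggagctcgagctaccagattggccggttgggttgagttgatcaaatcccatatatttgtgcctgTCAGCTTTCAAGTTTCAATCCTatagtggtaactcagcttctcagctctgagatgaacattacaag

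The next longest shared run among the 8 promoters was 13 bases, between Clec2i and Klrb1f, and Clec4e and Clec4d shared 10. The Clec2 genes are alike in sequence, so a dim probe set may read more than 1 of them.

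The remaining Clec2 genes lay near or under the olfactory level. Clec2j came closest to the threshold of the F test (adjusted p = 0.0672, limma). It was measured at 5.06 and 5.48 in HSC, 5.22 and 5.21 in LMPP, 6.19 and 5.71 in CLP, 5.38 and 5.77 in ETP, 6.02 in DN2, and 5.88 and 5.80 in DN3. Its CLP, DN2 and DN3 arrays were above all HSC and LMPP arrays. Clec2e lay between 4.19 and 4.72, Clec2h between 5.46 and 5.79, Clec2l between 5.46 and 5.89 and Clec2m between 4.31 and 4.89.

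Clec12a encodes an inhibitory receptor of myeloid and dendritic cells that senses uric acid crystals. It was bright in every population, at 7.36 and 8.34 in HSC, 9.30 and 9.11 in LMPP, 10.24 and 10.12 in CLP, 8.64 and 9.20 in ETP, 8.52 in DN2, and 7.38 and 7.53 in DN3. The CLP arrays were the highest, the ETP and LMPP arrays overlapped, and DN3 overlapped with HSC at the bottom. Clec12a was 2.55-fold higher in LMPP than in HSC (log2 difference 1.35 ± 0.28, SE; adjusted p = 0.0265, limma). It was 2.39-fold lower in ETP than in CLP (adjusted p = 0.0411, limma) and 2.77-fold lower in DN3 than in ETP (adjusted p = 0.00797, limma). The difference of 0.98 between LMPP and CLP did not pass (adjusted p = 0.197, limma). It passed only without either HSC array. The HSC arrays lay apart (7.36 and 8.34) and are not part of this difference, so it stayed the same and the estimate of the spread changed. Of the called differences, that between HSC and LMPP was lost without HSC replicate 1 or either LMPP or DN3 array (0.052 to 0.156). That between CLP and ETP was lost without either LMPP, CLP, ETP or DN3 array (0.0643 to 0.264), with quantiles normalized once more (0.0521), with arrays centred on their medians (0.0522) or in a fit of the 2 groups alone (0.0612), and that between ETP and DN3 without ETP replicate 2 or either DN3 array (0.0508 to 0.0901). Over the 6 population means Clec12a had a correlation of 0.88 with Klrd1 and 0.85 with Klrb1f.

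The neighbours of Clec12a were dim. Clec7a (Dectin-1), the receptor for fungal beta-glucan, lay between 5.07 and 5.48, Clec9a, which binds actin of dead cells in cross-presenting dendritic cells, between 3.89 and 4.73, Clec1a between 4.05 and 4.45 and Clec12b between 4.35 and 4.82. Clec9a reached its highest value, 4.73, on CLP replicate 1. Clec1b (CLEC-2), a receptor of platelets for podoplanin, was measured at 4.38 and 4.40 in HSC and between 3.58 and 4.05 on all other arrays, and did not pass the F test (adjusted p = 0.145, limma). The mean of the 4 measured platelet markers was 7.51 to 7.66 in HSC and 5.22 to 5.67 elsewhere. Both HSC arrays lay above all others for Clec1b, at levels under the olfactory guide. The part of platelet RNA in these values was not tested.

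Clec4g, known as LSECtin from sinusoidal endothelium of liver and lymph node, was the only member with more than 1 single-symbol probe set. Its probe sets disagreed. The brighter set read 5.72 and 5.72 in HSC, 5.79 and 5.57 in LMPP, 5.68 and 5.72 in CLP, 6.37 and 6.19 in ETP, 5.39 in DN2, and 5.57 and 5.45 in DN3. Both ETP arrays were above all others. In ETP the level exceeded that of LMPP by at least 1.25-fold (adjusted p = 0.0317, limma) and that of CLP by at least 1.32-fold (adjusted p = 0.0348, limma). It was at least 1.37-fold lower in DN2 (adjusted p = 0.0193, limma) and at least 1.38-fold lower in DN3 (adjusted p = 0.00281, limma) than in ETP. The other probe set stayed between 4.65 and 5.09 on all arrays, with 4.74 ± 0.13 (SD, n = 2) in ETP. With the mean of both sets none of these 4 calls held (adjusted p 0.531, 0.662, 0.376 and 0.145, limma), nor did the F test (0.324). The F test was also lost without ETP replicate 1 (0.0979). The call against DN2 was lost without ETP replicate 1 (0.111) or ETP replicate 2 (0.06), that against LMPP without any single LMPP, ETP or DN3 array (0.053 to 0.183), and that against CLP without any single CLP, ETP or DN3 array (0.0655 to 0.213).

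The remaining 9 Clec genes showed no called difference. Clec5a, a myeloid receptor that signals through Tyrobp, had the widest range, 0.79: it read 5.27 and 4.70 in ETP and between 4.20 and 4.53 elsewhere, so that both ETP arrays were above all others, and its F test missed the threshold (adjusted p = 0.168, limma). Clec16a, a regulator of endosomes and mitophagy, lay between 6.65 and 7.18, Clec11a, a secreted growth factor for blood and bone progenitors, between 5.99 and 6.75, and Clec18a between 6.00 and 6.36. These 3 lay above the olfactory level on all arrays. Clec4f, a receptor of Kupffer cells, lay between 5.49 and 6.08, Clec3b (tetranectin) between 5.55 and 6.00, Clec3a between 5.34 and 5.68, Clec10a, a macrophage galactose receptor, between 4.33 and 4.97, and Clec14a, an endothelial protein, between 4.01 and 4.71.

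The Ly49 receptors, by which mouse natural killer cells read classical MHC class I, gave no called difference. All 6 measured members, Klra2, Klra3, Klra5, Klra6, Klra8 and Klra17, lay between 3.00 and 4.31 on all arrays. Klra3 had the widest range of population means among them, 0.40. It and its relatives are near-identical copies, so that a value cannot be assigned firmly to 1 of them. Of the 6 other Klr genes, Klrg2 had the widest range, 0.43, with values from 5.38 to 6.02. Klrg1, an inhibitory receptor for cadherins on natural killer and effector T cells, lay between 4.22 and 4.60. Klrh1, Klri1 and Klri2 lay between 2.74 and 4.23.

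One array stood apart among the uncalled members, most of which were dim. CLP replicate 1 gave the highest of the 11 values for 22 of the 47 uncalled members, where 13.5% of all genes had their highest value on that array. No such share was taken over dim genes alone, so a shift of dim genes in general on this array was not tested. Of the 47 members, 3 lay above the olfactory level on all arrays. Of the same 47 members 35 were higher on CLP replicate 1 than on CLP replicate 2, against 52.5% of all genes. For the called genes Klrd1, Klrb1f and Clec12a CLP replicate 1 was also the higher of the pair, by less than the difference between CLP and any other population.

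The adaptors these receptors need were themselves unequal across the populations, and 2 of the 3 passed the F test (beside 12.2% of all genes). Fcer1g, the partner of Clec4e, Clec4d and Clec4n, was measured at 7.92 and 8.04 in HSC, 7.51 and 7.27 in LMPP, 8.60 and 8.44 in CLP, 7.23 and 7.44 in ETP, 8.02 in DN2, and 5.69 and 5.70 in DN3. It was highest in CLP, where Clec4e and Clec4d were low, and the DN3 arrays lay far below all others. From HSC to LMPP it fell by 0.59 (adjusted p = 0.0403, limma). Fcer1g was 2.19-fold higher in CLP than in LMPP (adjusted p = 0.00194, limma), 2.28-fold lower in ETP than in CLP (adjusted p = 0.000647, limma) and at least 4.61-fold lower in DN3 than in DN2 (adjusted p = 3.2e-05, limma). Tyrobp, the partner of Clec5a and of activating Ly49 receptors, was measured at 10.44 and 10.85 in HSC, a mean of 10.88 ± 0.18 (SD, n = 2) in LMPP, 11.34 and 11.34 in CLP, 11.67 and 11.68 in ETP, 11.24 in DN2, and 6.56 and 7.08 in DN3. It was bright in all populations before DN3 and 21.5-fold lower in DN3 than in DN2 (adjusted p = 6.04e-06, limma). Hcst, the partner of Klrk1, lay between 8.71 and 9.31 and did not pass the F test (adjusted p = 0.499, limma).

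Among 18 measured genes of 20 that act below these receptors, 10 passed the F test (beside 12.2% of all genes), and 3 or 6 did without DN3 replicate 1 or 2. Between ETP and DN3 7 passed (beside 6.57% of all genes): Btk, Inpp5d, Malt1, Pik3cg, Plcg2 and Syk were lower in DN3 and Zap70, the kinase of T cell receptors, was higher. That count was 4 without ETP replicate 1, 3 without ETP replicate 2, 2 without DN3 replicate 1 and 4 without DN3 replicate 2. Btk, a kinase of B and myeloid cells, had the widest range: it lay between 8.52 and 9.12 on all arrays before DN3 and read 5.74 and 5.54 in DN3, at least 7.62-fold lower than in ETP (adjusted p = 3.55e-07, limma). Lcp2 (SLP-76), an adaptor of receptor kinases, read 9.18 and 8.96 in HSC, 7.93 and 8.28 in LMPP, 7.14 and 7.43 in CLP, 9.45 and 9.69 in ETP, 9.89 in DN2, and 9.68 and 9.80 in DN3. It was low in LMPP and CLP like Clec4e, and 4.87-fold higher in ETP than in CLP (adjusted p = 3.33e-05, limma), but unlike Clec4e it stayed high in DN3. Inpp5d (SHIP1), a phosphatase of inhibitory receptors, and Plcg2, a phospholipase, were 2.17-fold and 2.47-fold lower in DN3 than in ETP (adjusted p = 0.0312 and 0.0144, limma). Syk, the kinase of Clec4e and Clec7a, differed less: it lay between 7.49 and 7.98 before DN3 and read 6.97 and 7.14 in DN3 (log2 difference from ETP -0.73; adjusted p = 0.00392, limma). Card9, which carries that signal on to NF-kappa B, lay between 5.29 and 5.62 and never above the olfactory level.

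**Figure D4:**
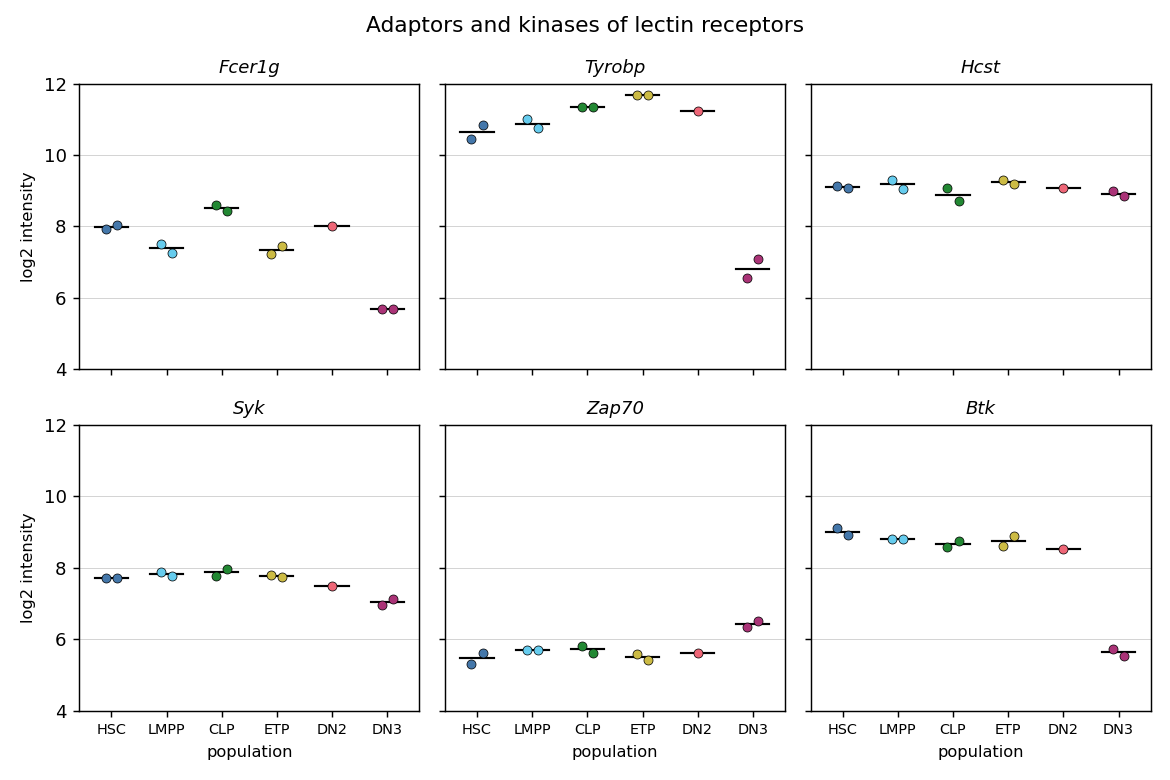
Log2 intensity (y axis) of the adaptors Fcer1g, Tyrobp and Hcst and the kinases Syk, Zap70 and Btk in the 6 populations (x axis), with a point for each of the 11 arrays and a black line at each population mean. Tyrobp reads 6.56 and 7.08 and Btk 5.74 and 5.54 in DN3, below all other arrays, Zap70 is highest in DN3 (6.34 and 6.51), and Hcst is level.

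The plot of adaptors and kinases shows where the DN3 arrays part from the rest. Fcer1g and Tyrobp, like Clec4e and Clec4d, were low in DN3 and not in DN2, whereas Klrd1 was low in DN2 (4.66) with both adaptors still high.

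Some genes with a C-type lectin domain have other names. Of 25 measured among 27, 8 passed the F test (beside 12.2% of all genes): Cd69, Cd72, Cd93, Sele, Cd302, Layn, Ly75 and Thbd. Cd69, the early activation marker, which lies in the same complex as the Clec2 genes, read 8.51 and 8.92 in HSC, 10.02 and 9.64 in LMPP, 10.98 and 10.34 in CLP, 7.55 and 7.60 in ETP, 6.28 in DN2, and 5.31 and 6.39 in DN3. It was highest in CLP, as Klrd1 was, but 8.48-fold lower in ETP (adjusted p = 0.000411, limma). Cd72, an inhibitory receptor of B cells, was highest in CLP (9.08 and 9.28) and at least 6.02-fold lower in DN3 than in ETP (adjusted p = 7.52e-06, limma). Cd93, a receptor of early B lineage and stem cells, was also highest in CLP (10.40 and 10.75) and 2.89-fold lower in DN3 than in ETP (adjusted p = 0.000135, limma). Sele (E-selectin) was higher in ETP (7.54 and 7.48) than in LMPP (6.50 and 6.26), by 2.18-fold (adjusted p = 0.00346, limma). Between ETP and DN3 6 of the 25 passed (beside 6.57% of all genes), and 3 did without ETP replicate 1, ETP replicate 2 or DN3 replicate 1.

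Ligands of the natural killer lectins were measured for 6 of 16 genes, and 2 passed the F test (beside 12.2% of all genes). H60b, a ligand of NKG2D, read 6.85 and 6.50 in CLP and 4.93 and 5.26 in DN3, and was at least 1.29-fold lower in DN3 than in ETP (adjusted p = 0.00567, limma). Cdh1 (E-cadherin), a ligand of Klrg1, read 6.07 and 6.01 in DN3 and between 5.01 and 5.47 elsewhere, and was at least 1.16-fold higher in DN3 than in ETP (adjusted p = 0.00183, limma). Cdh2, another cadherin of the list, went the other way: it was lower in DN3 (4.50 and 4.59) than in ETP (5.02 and 4.97; adjusted p = 0.0371, limma). No array of Cdh2 lay above the olfactory level. The class I genes that Klrd1 and the Ly49 receptors read were not analysed here.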

How the data were processed

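Trizol-extracted total RNA was labelled with biotin and put on 11 arrays, per the labels. The authors deposited log2 intensities, obtained with RMA per the submitters' processing notes. The version of RMA is not given in the sources used here, and neither is a genome build. Of 35556 probe sets, 21789 had 1 symbol in GEO's platform annotation and were used, 1621 had several and 12146 none. The probe set of highest mean stood for each of 19938 genes. One limma 3.58.1 fit (R 4.3.3) held 6 group means over 11 arrays, with 5 residual degrees of freedom, so that DN2, with 1 array, was assumed to vary like the others. It gave the F test and 7 two-sided comparisons, adjusted by Benjamini-Hochberg over all genes and called at adjusted p under 0.05. The fit was tested on simulated data. Values are means ± SD over arrays, and comparisons carry the SE of the fit.

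Every member is named. Values on each array are given for called members, and for the widest-ranging member of families without one. Of the lists of adaptors, signalling genes, ligands and other lectins, up to 4 called genes each are given by range; marker lists are given by their means, and the markers named, like further list genes (Hcst, Syk, Card9, Siglech, Clec2j and other members near the threshold) were chosen after their values were seen. Members and lists were chosen with earlier results of these data known. Promoters and gene order come from RefSeq (GRCm38.p6), in which all 56 members matched. Alternatives were a filter on dim genes, normalization, the mean of probe sets, the spread model, array weights, a replicate block, the 2 groups alone and leaving out each array. Counts of the lists under these settings, and folds given as bounds, were added after seeing the data.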

Additional observations from a re-analysis of the deposited data

How the results depend on the processing

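For the 28 differences of single genes called in a comparison, 515 values under the alternatives kept their direction. Of these, 428 also stayed past the threshold and 87 did not. The 9 differences that always stayed included those of Klrd1 from LMPP to CLP and from ETP to DN2 and DN3. The others were those of Clec4e in every called comparison except HSC to LMPP, and of Clec4d between ETP and CLP or DN3. In comparisons with DN2 its single array could not be left out, and no fit of the 2 groups alone was made. The differences of Klrd1 from ETP to DN2 and of Clec4e from DN2 to DN3 thus met 17 alternatives. The other ones of these 2 genes met 19, and those of Clec4d, which the filter on dim genes drops, met 18. Leaving out each array in turn, the number of members called ran from 8 to 10 in the F test, 1 to 5 between HSC and LMPP, 1 to 4 between LMPP and CLP, 1 to 6 between LMPP and ETP, 2 to 6 between CLP and ETP, 1 to 2 between ETP and DN2, 1 to 3 between DN2 and DN3 and 4 to 6 between ETP and DN3. Fits of the 2 groups alone, which have fewer samples, called 0 between HSC and LMPP (limma, 6 at an unadjusted p under 0.05), 1 between LMPP and CLP, 2 between LMPP and ETP and 2 between CLP and ETP. Over all 19938 genes these fits called 137, 67, 195 and 231, in the same order. With dim genes left out, which leaves 9 of the 56 members and drops Clec4d, Clec4g and Clec2g of those called, the counts were 6 in the F test, 3 between CLP and ETP, 1 between ETP and DN2, 1 between DN2 and DN3 and 3 between ETP and DN3. Over the 11627 genes kept, the same tests called 2118, 447, 169, 317 and 1203. With the mean of probe sets the count between ETP and DN2 was 1, and 206 over all genes. Clec9a passed the F test and the comparison of CLP with ETP only without CLP replicate 2, which leaves CLP replicate 1 (4.73) as the only CLP array. With all arrays the adjusted p was 0.73 and 0.735 in these tests (limma). Both CLP values, 4.73 and 3.89, lay under the olfactory level. Replicate numbers do not pair the samples: the correlation of replicate differences between populations ran from -0.26 to 0.28. With a replicate block the counts were 9 in the F test and 5, 3, 6, 4, 2, 2 and 5 in the 7 comparisons, in the order used above, and the difference of Klrb1f between CLP and ETP lost its call (adjusted p = 0.0514, limma). Over all genes the block gave 2352 in the F test and 566, 216, 442, 468, 155, 301 and 1285 in the comparisons. Signal near the olfactory level limits what can be said of 39 members. No group had more than 2 arrays, so no test for a deviating array could be made.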

Other observations

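4 probe sets that the annotation assigns to several Klra genes at once were left out of the 56 genes. Their values lay between 3.03 and 3.82 on all 11 arrays, in the range of the 6 Ly49 genes with a probe set of their own.

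Among the natural killer markers Gzma and Nkg7 differed from each other. Gzma, a granzyme, read 5.87 and 5.35 in HSC, 4.90 and 4.96 in LMPP, 5.23 and 4.82 in CLP, 6.52 and 7.66 in ETP, 9.53 in DN2, and 11.16 and 11.21 in DN3. It rose from ETP to DN2 and from ETP to DN3 (adjusted p = 0.0113 and 1.23e-05, limma), where Klrd1 fell. Nkg7, a protein of cytotoxic granules, read 9.81 and 10.02 in HSC, 8.20 and 8.61 in LMPP, 9.16 and 8.85 in CLP, 10.27 and 10.59 in ETP, 10.24 in DN2, and 8.97 and 8.83 in DN3, and was lower in DN3 than in ETP (adjusted p = 0.000314, limma).

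Over the 6 population means Clec2g, which passed only the F test, had a correlation of 0.88 with Klrd1 and 0.87 with Klrb1f, genes that are also highest in CLP.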
